A study of Mus musculus with 3 samples.

Results

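The eosinophil lineage genes described here are Epx, Prg2, Prg3, Il5ra, Ear2 and Ccr3, 6 genes, of which 5 are among the 18193 that the platform annotation pairs with a probe set of their own. They were taken through every probe set that the annotation pairs with a single gene symbol, which gave 5 probe sets for 5 of the 6 genes. No probe set carried Ear2 as its only symbol, so Ear2 was not analysed here. RNA came from bone marrow cells of 10-week-old mice, sorted as positive for Sca-1 and negative for lineage markers, a fraction used as haematopoietic progenitors. There were 3 arrays, 1 from wild type C57BL/6J mice and 1 each from the C57BL/6J transgenic lines Line 6 and Line 3, whose construct is labelled Tg(Ly6a-KDM1A*v2 and so pairs the Sca-1 gene with the gene of the histone demethylase LSD1. The wild type mice carried no transgene by their label. The labels do not say how many mice stood behind each array or whether each line is 1 insertion.

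Eosinophils are granulocytes that leave the bone marrow after maturing under interleukin 5, which binds a receptor made of the alpha chain Il5ra and the shared beta chain Csf2rb. Their large granules are filled with major basic protein (Prg2) and its homologue (Prg3), eosinophil peroxidase (Epx) and ribonucleases of the Ear family, and Ccr3 is the receptor through which eotaxins draw the mature cells into tissue. In the mouse the lineage depends on GATA1, acting with C/EBP factors and PU.1, and committed progenitors already transcribe granule genes.

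RefSeq promoter windows (build GRCm38.p6) were found for 5 of the 6 genes, 4 of them measured, and no Prg2 window was in the table used. Those of the measured genes are shown because GATA1 and GATA2, which were also measured on these arrays, bind the letters that stand in capitals. Each window is the 250 bases before the listed start, on the gene's own strand. For Ccr3 the listed start lies inside the annotated gene.
Prg3, chr2:84987965-84988214, plus strand: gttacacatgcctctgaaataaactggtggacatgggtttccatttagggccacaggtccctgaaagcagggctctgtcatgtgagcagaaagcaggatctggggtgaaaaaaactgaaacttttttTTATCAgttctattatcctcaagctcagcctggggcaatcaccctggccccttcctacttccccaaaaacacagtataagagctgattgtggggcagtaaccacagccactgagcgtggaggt
Il5ra, chr6:106749038-106749287, minus strand: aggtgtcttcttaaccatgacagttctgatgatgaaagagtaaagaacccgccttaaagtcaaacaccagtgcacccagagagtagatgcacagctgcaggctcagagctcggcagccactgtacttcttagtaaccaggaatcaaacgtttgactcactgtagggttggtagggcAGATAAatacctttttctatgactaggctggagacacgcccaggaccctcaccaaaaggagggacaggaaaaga
Ccr3, chr9:124021721-124021970, plus strand: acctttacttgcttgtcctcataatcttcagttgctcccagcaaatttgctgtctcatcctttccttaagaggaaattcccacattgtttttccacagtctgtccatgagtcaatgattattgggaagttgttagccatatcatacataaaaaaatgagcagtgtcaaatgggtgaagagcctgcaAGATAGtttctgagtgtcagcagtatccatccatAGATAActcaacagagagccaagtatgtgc
Epx, chr11:87875537-87875786, minus strand: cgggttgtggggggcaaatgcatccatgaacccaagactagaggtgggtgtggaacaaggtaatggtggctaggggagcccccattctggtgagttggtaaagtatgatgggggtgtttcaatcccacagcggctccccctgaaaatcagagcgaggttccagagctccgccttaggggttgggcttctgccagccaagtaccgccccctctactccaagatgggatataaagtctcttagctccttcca

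The capitals mark AGATAA and its forms AGATAG, with a last G, then TGATAA and, lastly, TGATAG, searched on both strands. Ccr3 held 2 matches, beginning 64 and 30 bases before its listed start and without overlap. Il5ra held 1, beginning 74 bases before its start, and Prg3 held 1 on the opposite strand, beginning 123 bases before its start, while Epx held none. Of all 32851 promoter windows of this length, 26.5% held at least 1 such match. The C/EBP letters TTGCNNAA, searched on both strands, were in none of the 4 windows shown and in 9.56% of all windows. A match is a string of letters and no evidence of binding here.

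Values are deposited intensities on a linear scale, and differences are on the log2(intensity + 16) scale, each line against wild type or Line 3 against Line 6. Where 3 intensities stand in a row they are in the order wild type, Line 6, Line 3, and a pair of differences is in the order Line 6, Line 3. Each gene stands for its brightest probe set, and 10864 genes passed a filter that asks for an intensity at or above the array's median on at least 1 array. All 5 measured eosinophil genes passed, and all 5 lay above the 75th percentile of every array (553 to 573), so none passed through 1 array alone. Since the wild type and the lines were each hybridised once, the differences of a single line carry no replicate error and no test, and the word called means a difference of 2-fold or more. The SD of Line 3 minus Line 6 over all 10864 genes was 0.38, which holds noise and any difference between the lines.

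As checks of the arrays, Kdm1a, the mouse gene of LSD1, read 2104 (wild type), 2575 (Line 6) and 2979 (Line 3) on its brighter probe set. Its other probe set read 916, 911 and 1482 and so was not higher in Line 6. Whether its probes bind transgene RNA was not tested. The X-inactivation RNA Xist read 2729, 6152 and 5155 on its brightest probe set and the Y-linked gene Eif2s3y read 2325, 978 and 1031, so the wild type array differed from both lines in sex-linked RNA as well. Ly6a, the Sca-1 gene, has no single-symbol probe set and was not analysed here. Markers of lineages that the sort was meant to remove were also read. All 16 neutrophil and granule markers and 7 of 8 erythroid markers with a probe set passed the filter described above, as did 10864 of all 18193 genes. Whether cells of these lineages remained after the sort was not tested.

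All 5 measured eosinophil genes had their lowest intensity in wild type and a higher one in both lines. Of all genes, 48.8% lay above wild type in both lines (57.6% in Line 6 and 60.6% in Line 3), a share of 45.6% after quantile normalization, 26.6% after centring on array medians and 42% after cyclic loess, and the 5 genes lay above wild type under each of these. Against the 2-fold limit the differences were small: 1 of the 5 was called in Line 6, Ccr3, where 2.57% of all genes were called higher, and 0 of the 5 was called in Line 3, where 3.57% were. At a 1.5-fold limit 3 of the 5 were higher in Line 6 (9.27% of all genes) and 2 in Line 3 (15.1%). None was called higher in both lines, where 1.35% of all genes were, and none was called lower, against 2.41% and 4.46% of all genes. The median difference of the 5 genes was 0.59 in Line 6 and 0.49 in Line 3, where the medians of all genes were 0.06 and 0.12. In bulk RNA of a sorted fraction, more cells of a type and more RNA per cell cannot be told apart.

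**Figure D1:**
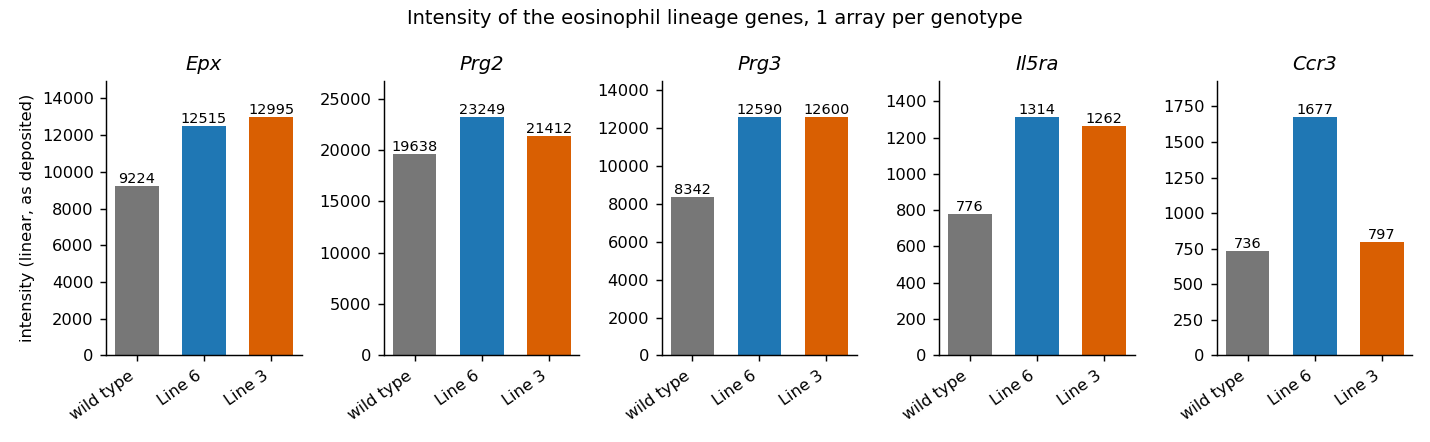
Deposited intensity (linear vertical axis from 0, a separate scale for each gene) of the 5 measured eosinophil genes on the wild type, Line 6 and Line 3 arrays, 1 bar per array and no error bar because each genotype had 1 array. The wild type bar is the lowest for every gene, and Ccr3 is the only one of the 5 in which Line 6 stands far above both other arrays (1677 against 736 and 797).

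Among the granule genes, Prg3 on chromosome 2, the homologue of major basic protein (Entrez gene 53856), read 8342 (wild type), 12590 (Line 6) and 12600 (Line 3). Both lines stood 0.59 above wild type, or 1.51-fold. With array medians set equal the differences were 0.36 in Line 6 and 0.56 in Line 3, so the closeness of the lines depends on the scale. The medians of all genes were then -0.17 in Line 6 and 0.09 in Line 3. On the deposited scale, a difference at least as large was seen in 8.97% of all genes in Line 6 and in 14.6% in Line 3.

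Epx on chromosome 11, the peroxidase that makes hypobromous acid in eosinophil granules (Entrez gene 13861), read 9224 (wild type), 12515 (Line 6) and 12995 (Line 3). The lines lay close together, 0.44 and 0.49 above wild type, or 1.36-fold and 1.41-fold, and 0.05 apart. With array medians set equal, Epx stood 0.20 above wild type in Line 6 and 0.46 in Line 3. Line 3 minus Line 6 was then 0.26 for Epx, where the median of all genes was 0.25. On the deposited scale, 14.8% of all genes in Line 6 and 20.1% in Line 3 had a difference at least as large as that of Epx.

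Prg2 on chromosome 2, the major basic protein of the granule core (Entrez gene 19074), read 19638 (wild type), 23249 (Line 6) and 21412 (Line 3). It had the smallest difference of the granule genes, 0.24 in Line 6 and 0.12 in Line 3, and 49.8% of all genes had at least the Line 3 difference. Its intensity was 76.9% of the highest on the wild type array, 97.4% on the Line 6 array and 97.2% on the Line 3 array. No saturation flag came with the values used here, so whether the probe set could have read higher was not tested.

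The interleukin 5 receptor alpha chain gene Il5ra on chromosome 6 (Entrez gene 16192) read 776 (wild type), 1314 (Line 6) and 1262 (Line 3). It was 0.75 higher in Line 6 and 0.69 higher in Line 3, or 1.68-fold and 1.61-fold, which put it inside the 2-fold limit on both arrays. Differences at least this large were found in 5.36% of all genes in Line 6 and in 10.7% in Line 3. The 2 lines differed from each other by -0.06.

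Ccr3 on chromosome 9, the eotaxin receptor (Entrez gene 12771), read 736 (wild type), 1677 (Line 6) and 797 (Line 3). Line 6 alone was high. The difference from wild type was 1.17 in Line 6, or 2.25-fold, and 0.11 in Line 3, or 1.08-fold, and Line 3 lay -1.06 from Line 6. Among all genes, 1.60% had a Line 6 difference at least as high, and 1.33% had a Line 3 minus Line 6 difference at least as low. With each array's median set equal, Ccr3 stood 0.93 above wild type in Line 6 and at -0.86 between the lines, both inside the 2-fold limit. The contrast between the lines was not tested.

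**Figure D2:**
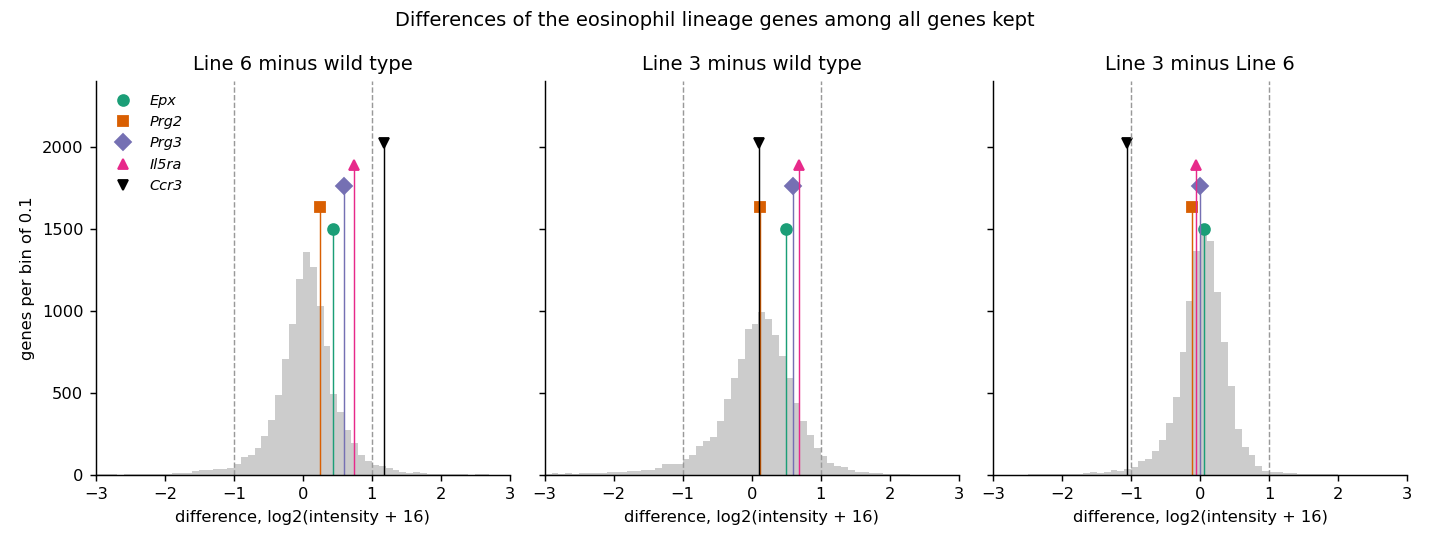
Differences on the log2(intensity + 16) scale (horizontal axis) for Line 6 minus wild type, Line 3 minus wild type and Line 3 minus Line 6, with grey bars counting the 10864 genes per bin of 0.1 (vertical axis), coloured stems marking the 5 eosinophil genes and dashed lines the 2-fold limit (differences beyond 3 lie outside the axis). The height of a stem has no meaning. In the first panel Ccr3 is past the limit at 1.17, in the second no stem is, and in the third Ccr3 stands at -1.06 while the other stems lie between -0.12 and 0.05.

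Between the lines, 2 of the 5 genes were higher in Line 3, against 56.5% of all genes. Ccr3 was the 1 gene called, lower in Line 3, where 1.58% of all genes were called lower and 0.709% higher. The order of the arrays was wild type, Line 3, Line 6 for Ccr3, Prg2 and Il5ra, and wild type, Line 6, Line 3 for Epx and Prg3. The lines exchanged places within 0.12 for every gene but Ccr3, less than the SD of 0.38 over all genes. That SD takes in genes dimmer than these 5, so it does not give the spread at their intensities. With array medians set equal, Line 3 stood above Line 6 by 0.082 (Prg2) to 0.26 (Epx) in the 4 genes other than Ccr3. On that scale the median of all genes for Line 3 minus Line 6 was 0.25.

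The scale of the arrays moved these values. Centring on array medians lowered the median of all genes in Line 6 by -0.24 and that in Line 3 by -0.04. Relative to the median of all genes, the Line 6 differences on the deposited scale were 1.11 for Ccr3, 0.69 for Il5ra, 0.53 for Prg3, 0.38 for Epx and 0.18 for Prg2. Those in Line 3 were 0.57 for Il5ra, 0.47 for Prg3 and 0.37 for Epx, with 0.00 for Prg2 and -0.01 for Ccr3. Prg2 and Ccr3 in Line 3 thus lay at the middle of all genes.

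**Figure D3:**
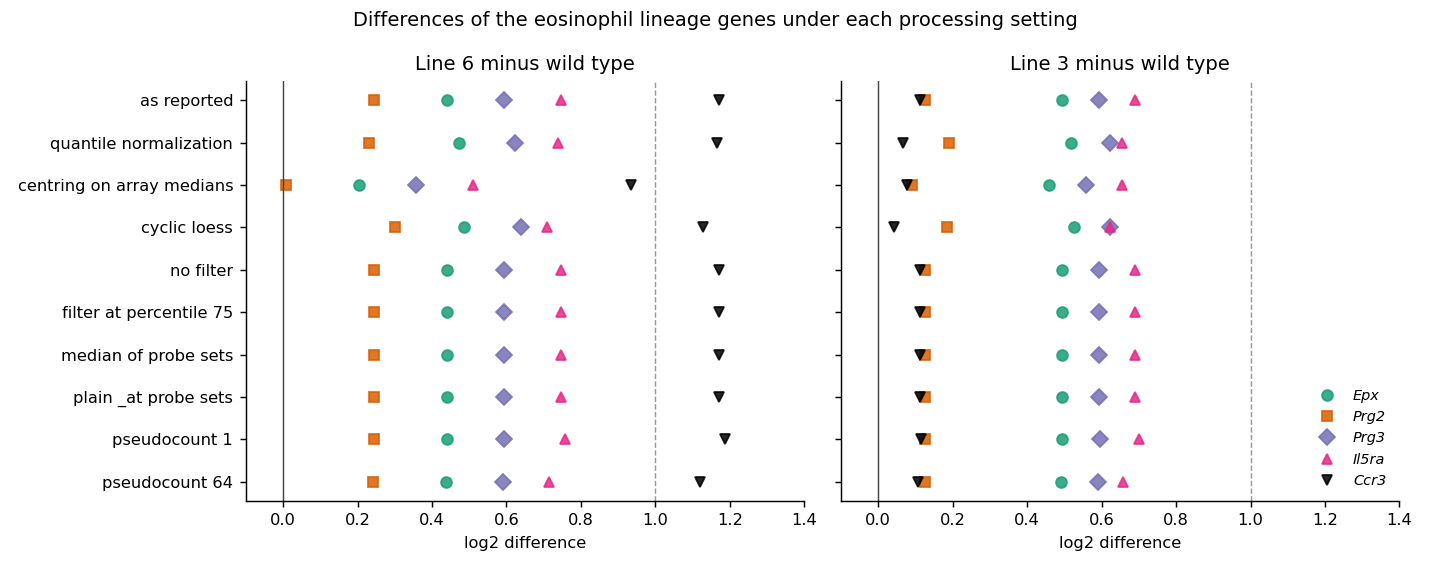
Log2 difference from wild type (horizontal axis) of the 5 eosinophil genes in Line 6 and Line 3 under each of 10 processing settings (rows), with the 2-fold limit dashed. All points lie above 0, though only the 3 other scalings could have changed a sign. Prg2 stands at 0.01 in Line 6 when array medians are set equal, and Ccr3 in Line 6 drops below the limit in that row only.

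A limma fit over 10864 genes that took both lines as samples of 1 transgenic group against the 1 wild type array assumed that wild type varies as the lines do. Its adjusted p-values for the 5 genes ran from 0.219 for Il5ra to 0.728 for Prg2. With limma, 0 genes of 10864 passed an adjusted p of 0.05, and 1732 had an unadjusted p under 0.05, among them Il5ra (adjusted p = 0.219) and Prg3 (adjusted p = 0.278).

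By distance in the 2 line differences, over the 3 arrays, the genes most like Ccr3 were Fbxo27, Slamf6 and Gstt1, at Euclidean distances of 0.03, 0.08 and 0.10. Slamf6, a receptor of lymphocytes, read 108 (wild type), 275 (Line 6) and 114 (Line 3). Gstt1, a glutathione transferase gene, read 107, 270 and 109. Fbxo27, an F-box gene, read 45.1, 118 and 50.6 and passed the filter through Line 6 alone, with its other intensities under the array medians, so its distance cannot be interpreted. All 3 lay below the 75th percentile of every array. In total 25 of 10864 genes, or 0.23%, were called higher in Line 6 while lying within 1.2-fold of wild type in Line 3.

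On the Line 6 array, where Ccr3 was high, B cell and megakaryocyte markers were also above wild type. All 9 B cell markers kept were above wild type in Line 6, against 57.6% of all genes, with 8 called higher (7 with array medians set equal), against 2.57% of all genes. Their summed intensity was 3551 (wild type), 11364 (Line 6) and 4066 (Line 3). Rag2, 1 of those called, read 62.7, 346 and 144 and passed the filter through the lines alone. It thus had to read higher in at least 1 line. All 7 megakaryocyte markers kept were above wild type in Line 6 as well on the deposited scale. Gp9 turned to between -0.13 and -0.10 there under the 3 other scalings. The 2 called were Pf4 and Gp5 (0 or 1 under the 3 other scalings). Gp5 passed the filter through Line 6 alone and so had to read higher there. The megakaryocyte markers had sums of 1942, 3364 and 2676. None of these markers was below 16 on all arrays. Their part in the Ccr3 difference was not tested.

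The Ear ribonucleases are cytotoxic and antiviral granule proteins of rodents, encoded by a family of near-identical genes. Of Ear1, Ear6, Ear10 and Ear14, none had a single-symbol probe set. The probe set annotated to Ear3, named here after its values were seen, read 4973 (wild type), 5592 (Line 6) and 4656 (Line 3). Its differences were 0.17 and -0.09, the former turning to -0.07 when array medians were set equal. Its suffix _x_at marks probes that can bind other transcripts, so which Ear gene it measured is uncertain. Rnase2a (synonym Ear11) read 80.6, 64.4 and 32.7, and Rnase2b (synonym Ear5) read 38.5, 42.9 and 19.0, and neither passed the filter.

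Other genes of eosinophils did not share 1 direction. Of 15 listed genes, 11 had a probe set and 7 passed the filter. On the deposited scale 4 of the 7 lay above wild type in both lines, as did 48.8% of all genes. The other 3 lay below it in both. In both lines 0 of the 7 was called higher and 2 were called lower, Pirb and Cd300lf. Of all genes, 1.35% were called higher and 2.07% lower in both lines. The median of the 7 was 0.05 in Line 6, turning to between -0.19 and -0.18 under the 3 other scalings, and 0.19 in Line 3.

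Siglecf, the sialic acid receptor used to sort mouse eosinophils, was chosen after its values were seen. It read 1738 (wild type), 2829 (Line 6) and 2519 (Line 3). Both lines were above wild type, by 0.70 and 0.53, inside the 2-fold limit. Alox15, the lipoxygenase of eosinophils and some macrophages, read 4406, 7274 and 5703, with differences of 0.72 and 0.37. Alox5, on the same list and chosen after its values were seen, was lower in both lines. It read 1398, 843 and 872, with differences of -0.72 and -0.67.

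The inhibitory receptor genes Pirb and Cd300lf, which are expressed by neutrophils and monocytes too, ran the other way from Siglecf and Alox15. Pirb read 3799 (wild type), 1301 (Line 6) and 808 (Line 3), differences of -1.53 and -2.21. Cd300lf read 6626, 2753 and 1156, differences of -1.26 and -2.50. Wild type was the highest array for both, the reverse of the 5 eosinophil genes.

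Of 14 listed transcription factors of the eosinophil lineage, 13 were kept. In Line 6, 0 was called higher and 1 lower, and in Line 3, 1 was called higher and 1 lower. Of all genes, 2.57% were called higher and 2.41% lower in Line 6, and 3.57% and 4.46% in Line 3. Medians were -0.09 and 0.09. Gata1, the factor without which mice make no eosinophils, was chosen after its values were seen and read 773 (wild type), 1416 (Line 6) and 1187 (Line 3). It was 0.86 and 0.61 higher, inside the limit.

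Gata2, a GATA factor of stem cells, mast cells and early eosinophil progenitors, read 1984 (wild type), 3056 (Line 6) and 4114 (Line 3). Its difference was 0.62 in Line 6 and 1.05 in Line 3, the 1 factor called higher, and its second probe set gave 0.37 and 1.27. Trib1, a pseudokinase that promotes loss of C/EBP alpha protein, read 764, 240 and 363. It was called lower in both lines, at -1.61 and -1.04, and its second probe set gave -1.66 and -1.75. Spi1, which encodes PU.1 and was chosen after its values were seen, differed by -0.49 and -0.59. Xbp1, a secretory pathway factor needed for eosinophil differentiation in mice, was the brightest of the list and differed by -0.26 and 0.09.

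Other receptor genes did not share 1 direction with Il5ra. Of 10 listed growth factor receptors, 9 were kept. Their median was -0.18 in Line 6 and 0.02 in Line 3, the latter turning to between -0.06 and -0.02 under the 3 other scalings. Csf2rb, the beta chain that the interleukin 5 receptor shares with those for interleukin 3 and GM-CSF, was chosen after its values were seen. It read 4140 (wild type), 3125 (Line 6) and 3155 (Line 3), so that both lines lay below wild type by -0.40 and -0.39 while Il5ra lay above it.

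Csf2ra, the GM-CSF receptor alpha chain, read 4940, 3433 and 3255. Its differences of -0.52 and -0.60 were inside the limit, while its second probe set gave -1.32 and -1.43. Cd34, a progenitor antigen also carried by eosinophil progenitors, read 971, 1838 and 2315 and was called higher in Line 3 alone, at 0.91 and 1.24. Il1rap, the co-receptor of interleukin 1 and interleukin 33, read 576, 242 and 282. It was called lower in Line 6, at -1.20, and stood at -0.99 in Line 3, past the limit under each of the 3 other scalings.

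Downstream of the receptor, 11 of 15 listed signalling genes were kept. In either line 0 was called higher, where 2.57% (Line 6) and 3.57% (Line 3) of all genes were. In both lines 1 was called lower, where 2.07% of all genes were. That gene was Socs3, a feedback inhibitor of cytokine receptors, which read 627 (wild type), 180 (Line 6) and 149 (Line 3). Its differences were -1.72 and -1.96, and the other 2 probe sets were lower as well, by -2.99 and -1.57 in Line 6. Sdcbp, which encodes syntenin, a protein that binds the interleukin 5 receptor alpha chain, differed by -0.11 and -0.23. The list medians were -0.12 in Line 6 and -0.18 in Line 3.

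Ligands were mostly dim. Of 11 listed ligand genes, 2 passed the filter, Ccl5 (0.00 in Line 6, with -0.24 after centring on array medians, and 0.06 in Line 3) and Ccl2. Ccl2 read 153, 53.4 and 49.5 and passed through the wild type array alone, so no size is given for its difference. Il5 itself, named with Ccl11 and Ccl24 after their values were seen, read 2.14 (wild type), 23.5 (Line 6) and 9.89 (Line 3). The eotaxin gene Ccl11 read 9.81, 9.01 and 20.2. Ccl24, the second eotaxin, read 24.7, 13.8 and 24.9. These intensities lay below the median of every array (96.2 to 116), where no level could be told from background.

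**Figure D4:**
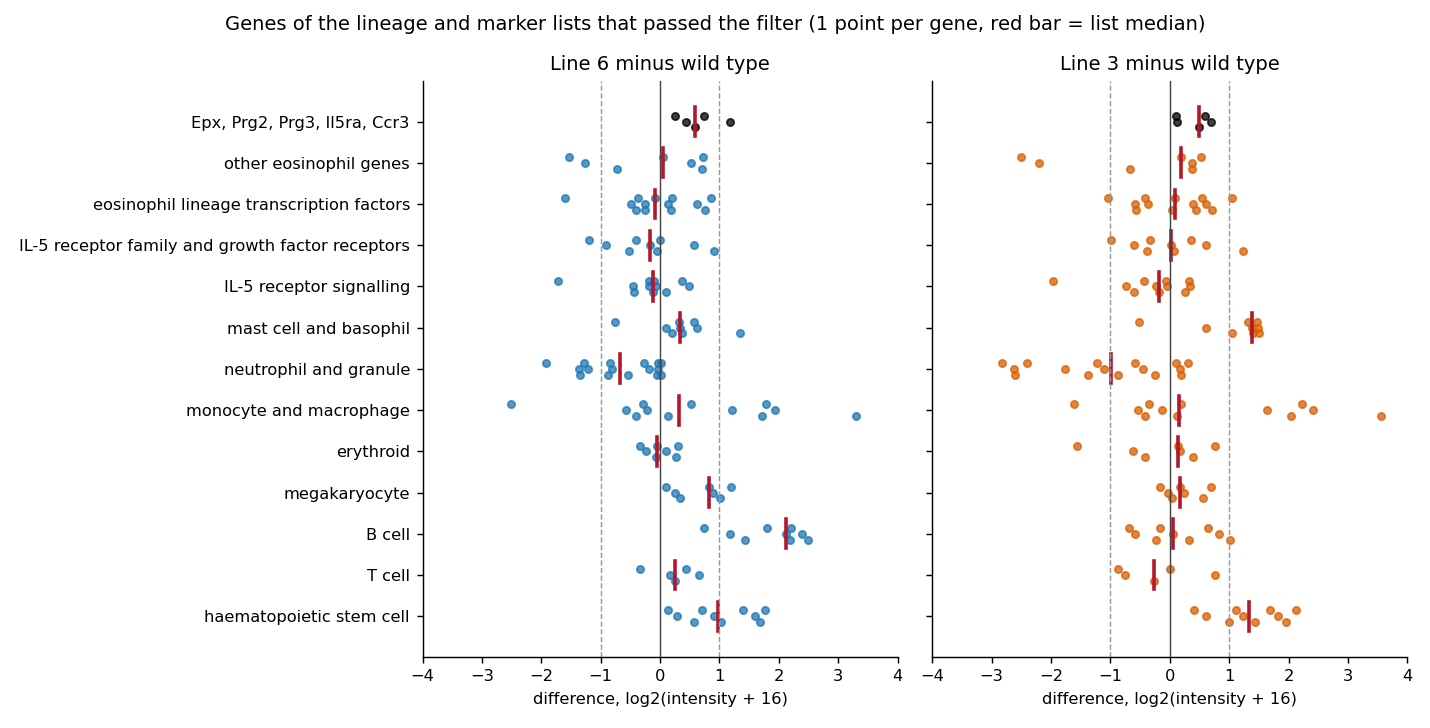
Differences from wild type on the log2(intensity + 16) scale (horizontal axis) in Line 6 and Line 3 for the genes of each list that passed the filter, 1 point per gene, with a red bar at the list median and dashed lines at the 2-fold limit. The 5 eosinophil genes (top row) lie between 0.24 and 1.17 in Line 6 and between 0.11 and 0.69 in Line 3, while neutrophil and granule genes have medians of -0.68 and -0.99.

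Markers of other granulocytes differed on the same arrays. Neutrophil and granule markers, all 16 of which were kept, had medians of -0.68 in Line 6 and -0.99 in Line 3, with 5 and 8 called lower, where 2.41% and 4.46% of all genes were. Their intensities summed to 200855 (wild type), 150828 (Line 6) and 133135 (Line 3), and none was below 16 on all arrays. Within that list the primary granule gene Mpo, also chosen after its values were seen, which encodes the neutrophil peroxidase related to Epx, differed by 0.02 and 0.10. The part of these markers in the eosinophil gene differences was not tested.

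Mast cell and basophil markers, cells whose progenitors share GATA2 with eosinophils, were called higher mostly in Line 3. Of 14 listed, 9 were kept, with 1 called higher in Line 6 (2.57% of all genes) and 7 in Line 3 (3.57%). The medians were 0.34 and 1.38, and the sums were 15677 (wild type), 16093 (Line 6) and 27708 (Line 3). The 1 marker called in Line 6 was Slc45a3 (46.2, 142 and 157), which was also called in Line 3. It passed the filter through the lines alone, so it had to read higher in at least 1 of them. Tpsab1, a mast cell tryptase gene, was the 1 marker below 16 on all arrays. Cpa3, a mast cell protease gene, read 1281, 1480 and 3579. Hdc, the brightest of the list, read 6211, 3677 and 4343, with differences of -0.75 and -0.51. It was the 1 of the 9 markers kept that lay below wild type in both lines. The part of these markers was not tested.

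All 10 haematopoietic stem cell markers kept, of 14 listed, were above wild type in both lines on the deposited scale, as were 48.8% of all genes. After centring on array medians, Flt3 stood at -0.10 in Line 6. The 10 markers had medians of 0.97 and 1.34 and summed intensities of 6134, 9769 and 11927. Of these, Procr (32.3, 130 and 194) and Mecom (69.6, 260 and 286) passed the filter through the lines alone. Both thus had to read higher in at least 1 line. Monocyte and macrophage markers, 12 of 13 kept, had medians of 0.33 and 0.15 and sums of 30103, 28799 and 29310. In each line 5 were called higher and 1 lower. Cd5l (65.4, 786 and 939), 1 of those called higher, passed the filter through the lines alone, so it had to read higher in at least 1 line. Of 7 erythroid markers kept 0 was called in Line 6 and 1, lower, in Line 3, and of 5 T cell markers kept 0 was called in either line. Among all genes, 2.57% were called higher and 2.41% lower in Line 6, and 3.57% and 4.46% in Line 3. No list was tested against the eosinophil genes.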

How the data were processed

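Affymetrix GeneChip arrays measured total RNA of 3 samples, 1 per genotype, isolated in Trizol, then amplified by Ovation Pico WTA and biotin-labelled, per the labels' protocols. The deposited values are intensities, linear and 1 for every probe set of an array. The labels do not state how they were summarised or scaled, and the 2% trimmed mean was 497 on all 3 arrays. Of 45037 probe sets, 34945 had 1 symbol in the platform annotation, and 34741 of these matched the gene table (GRCm38.p6) by Entrez identifier.

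The log2(intensity + 16) values, brightest probe set per gene and filter at the array median were used. The number of arrays limits the precision. Genes named are the 6 members, up to 4 genes per list past 2-fold in a line plus the brightest, and the 3 genes nearest to a called member. Genes named outside this rule are marked so. Members and lists were chosen with earlier results of these data known. The 2-fold count was tested on simulated data. Alternatives were quantile normalization, centring, cyclic loess, other filters, probe set rules, pseudocounts (1 and 64) and limits (1.5-fold and 3-fold), and limma 3.58.1 in R 4.3.3. Scripts ran in Python 3.11.15 with pandas 2.3.3 and numpy 2.4.6.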

Additional observations from a re-analysis of the deposited data

How the results depend on the processing

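On the deposited scale and under the 3 other scalings, every measured eosinophil gene lay above wild type in both lines. The other filters, probe set rules and pseudocounts could not change the sign of a difference, because each gene has 1 probe set. After centring on array medians, the count past 2-fold was 0 in Line 6 and 0 between the lines. Line 3 minus Line 6 then turned to 0.14 for the median of the 5 genes, 0.14 for Il5ra and 0.082 for Prg2. The median of all genes for Line 3 minus Line 6 was 0.25 on that scale. After cyclic loess, Line 3 minus Line 6 was -0.015 for Prg3. A 1.5-fold limit gave 3 genes higher in Line 6 (9.27% of all genes) and 2 in Line 3 (15.1%), and a 3-fold limit gave 0 in Line 6 and 0 between the lines. No paired analysis was possible because each genotype has 1 array. Dim genes cannot be told from background, and Prg2 lies near the top of the intensity range.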

Other observations

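Genes near the eosinophil genes in the RefSeq gene order were measured too. Mpo, close to Epx on the same chromosome, differed by 0.02 (Line 6) and 0.10 (Line 3), and Lpo, the lactoperoxidase gene between them, by 0.29 and 0.73. Mks1, a ciliary gene next to Epx, differed by 0.21 and 0.13. Beside Il5ra, the tRNA-processing gene Trnt1 differed by 0.29 and 0.41 and the cereblon gene Crbn by 0.17 and 0.31. The kept neighbours of Epx and Il5ra were thus above wild type in both lines on the deposited scale, as were 48.8% of all genes. Centring on array medians moves Line 6 differences by -0.24, which turns those of Mpo, Mks1 and Crbn below 0. Prg2 and Prg3 are adjacent, and on the side of Prg2 the transporter gene Slc43a3 differed by 0.00 and -0.05. On the side of Prg3 lies P2rx3, an ATP-gated channel gene, whose brightest probe set read 181 (wild type), 466 (Line 6) and 447 (Line 3). It was called higher in both lines, at 1.29 and 1.23, where 1.35% of all genes were, but its other 2 probe sets gave 0.62 and -0.31 in Line 6 and -0.20 and -0.65 in Line 3. These neighbours were chosen after the values of the 5 genes were seen.

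Ccr3 lies among other chemokine receptor genes that ran the opposite way. Ccr1, a receptor of neutrophils and monocytes, read 1493 (wild type), 512 (Line 6) and 356 (Line 3), differences of -1.52 and -2.02, and its second probe set gave -1.62 and -2.25. Ccr2, the monocyte receptor, differed by -0.58 and -0.54 on its brightest probe set. Wild type was thus the highest array for Ccr1 and Ccr2 and the lowest for Ccr3.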
